A study of Mus musculus with 10 samples.

Results

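The comparison described here sets induced oligodendrocyte progenitor cells (iOPC) at passage 15 against the pericytes (PC) they are labelled as made from, with 2 arrays of each. The members are the array probes that carry 1 gene symbol and were detected, at a p-value under 0.01, on 2 or more of the 4 arrays compared. This kept 12579 of the 25697 probes, which stood for 9072 of the 16590 genes on the array at 1 probe per gene, the brightest over the 4 arrays. Of these genes, 6983 were detected on all 4 arrays. Another 960 passed only through both passage 15 arrays and 700 only through both PC arrays, so that these 2 sets had to differ in detection.

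The whole series holds 10 Illumina expression arrays of cells of the mouse strain C57BL/6, with 2 arrays each titled iOPC at passages 5, 15 and 25, OPC and PC. The iOPC are described as induced from pericytes, and the labels name neither the inducing factors nor the origin of the pericytes. The OPC group is titled OPC but has oligodendrocyte as its cell type in the labels, which call it primary. The labels do not say whether replicates were separate cultures. The p-values therefore cover only how far the 2 arrays of a group lie apart, pooled over all 5 groups. The spread of groups outside a comparison thus enters its p-values. The precision is limited by having 2 per group. The 2 tables analysed were a signal table of intensities with detection p-values, and a value table of log2 values on the same probes.

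Oligodendrocyte progenitors are glial cells that divide in response to platelet-derived growth factor, carry the proteoglycan NG2 and later wrap axons in myelin. Their identity rests on transcription factors of the Olig, Sox and Nkx families, and Notch signalling holds them in the progenitor state. Pericytes lie on capillaries within the basement membrane, contract through smooth muscle actin and secrete collagens and other matrix proteins. NG2 and platelet-derived growth factor receptors are found in both lineages, the alpha receptor on progenitors and the beta receptor on pericytes.

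The column titles of the tables did not match each other, which bears on every result below. Across 9403 probes detected on all 10 arrays, the signal columns titled iOPC passage 15 had a mean Pearson correlation of 0.837 with the value columns of the same title, but of 0.964 with the value columns titled OPC. The signal and value columns titled PC correlated at 0.961, and no other pair of headings exceeded 0.885. These correlations are across probes, which are not independent replicates. Replicates of 1 group correlated at 0.997 to 0.998 in the signal table, and in the value table at 0.987 for passage 15 and 0.993 for PC. The arrays are therefore called by their titles throughout, passage 15 arrays and PC arrays, and the value columns titled iOPC passage 15 and those titled OPC are set beside them.

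**Figure D1:**
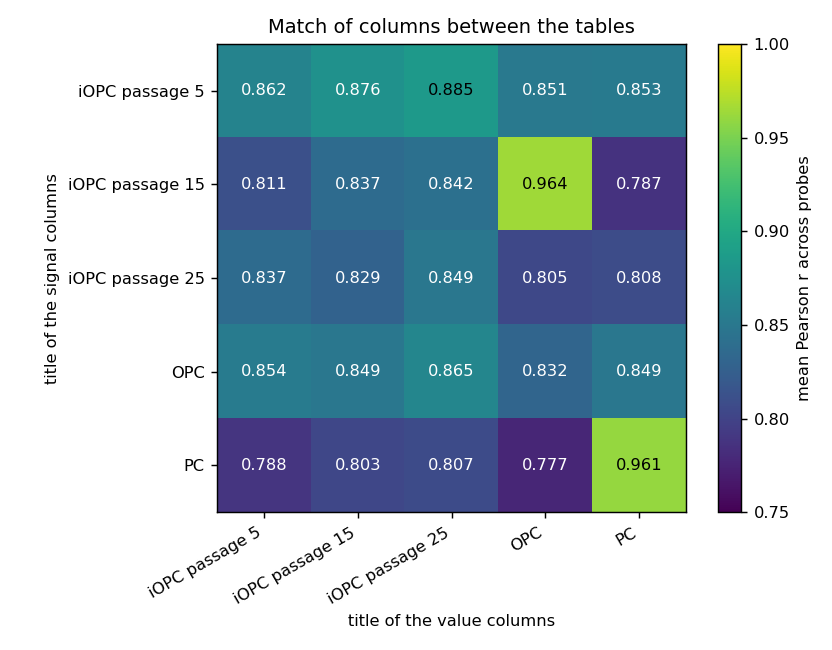
Mean Pearson correlation across 9403 probes between signal columns (rows) and value columns (columns), by title, for the 2 by 2 pairs of replicates; the colour scale runs from 0.75 to 1. The passage 15 signal columns match the OPC value columns at 0.964, and the PC columns match each other at 0.961.

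Sex-linked transcripts split the arrays in the same way. Eif2s3y, a translation factor gene of the Y chromosome, had log2 normalized signals of 9.89 and 9.74 on the passage 15 arrays, against 4.18 and 4.18 on the PC arrays, where it was not detected. On the arrays of the other passages it had 4.17 and 4.27 at passage 5, and 4.14 and 4.18 at passage 25. Xist, the RNA of the inactive X chromosome, had 4.22 and 4.35 on the passage 15 arrays, where it was not detected, against 8.52 and 8.37 on the PC arrays. Only the passage 15 pair among the 4 groups of pericytes and iOPC had the Y transcript high and Xist low. In the value table Eif2s3y was higher than in PC by 0.07 ± 0.31 (SE, log2) in the columns titled passage 15 (adjusted p = 0.858, limma) and by 8.06 ± 0.31 in those titled OPC (adjusted p = 3.24e-07, limma). Xist was higher by 0.90 in the columns titled passage 15 and differed by -7.10 in those titled OPC. The signal columns titled OPC had 4.36 and 4.24 for Eif2s3y and 9.40 and 9.47 for Xist, and their mean correlation with the value columns titled OPC was 0.832. The cause of the mismatch was not tested.

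Relative to PC, 3890 of 9072 genes (42.9%) rose in passage 15 in the signal table and 3226 (35.6%) fell at an adjusted p under 0.05 (limma, two-sided, Benjamini-Hochberg over all genes), with a median log2 change of 0.08 over all genes. At least 2-fold changes numbered 1612 up (17.8%) and 1554 down (17.1%). Among the deposited log2 values, 2681 genes (29.6%) rose and 2381 (26.2%) fell in the columns titled passage 15, and 2959 (32.6%) rose and 2484 (27.4%) fell in those titled OPC, both against the same PC columns. Because these comparisons share the PC columns, their values are only set side by side. The counts of the gene lists below were not tested against these shares of all genes. The standard error of a named gene's log2 change was 0.07 to 0.24 in the signal table and 0.12 to 1.16 in the value table. A gene named below as rising or falling in the signal table had an adjusted p of at most 0.0197 unless its p is given. Sizes are those of a gene's brightest probe. Of the named genes, 50 had another member probe, whose size or call could differ. In whole cultures, fewer cells of a type and less RNA per cell cannot be told apart.

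The 8 largest rises were in Olig1, Bcas1, Ednrb, Cntn1, Fabp7, Rtn1, Vxn and Bcan. Olig1, a transcription factor of the lineage, had log2 signals of 13.75 and 13.66 in passage 15, against 4.28 and 4.31 in PC. It was not well above background on either PC array, so its change is given as a bound, at least 436-fold higher (adjusted p = 7.86e-14, limma). Such a bound sets the bright side's mean against, for each dim array, the higher of the gene's own signal and the lowest signal among detected probes. Ednrb, an endothelin receptor, was at least 234-fold higher and Cntn1, a cell adhesion molecule of neurons and oligodendrocytes, at least 198-fold higher. Fabp7, a fatty acid binding protein of neural progenitors, was at least 161-fold higher, Vxn, a factor of neurogenesis, at least 142-fold and Bcan, which encodes the proteoglycan brevican, at least 119-fold. Bcas1, a marker of premyelinating oligodendrocytes, rose by 8.43 ± 0.21 (SE, log2), and Rtn1, a reticulon of the endoplasmic reticulum, by 7.95 ± 0.10, each of them detected on 1 of the 2 PC arrays. The largest rises and falls were named only among genes whose groups did not overlap, 88.7% of all genes tested. The 8 rises therefore had both passage 15 arrays above both PC arrays by choice.

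The 8 largest falls were in Mgp, Prl2c3, Prl2c4, Bgn, Emp1, Klra4, Anxa1 and Col4a1. Mgp, a secreted inhibitor of calcification, had log2 signals of 4.21 and 4.25 in passage 15, against 14.00 and 14.03 in PC, at least 601-fold lower (adjusted p = 6.51e-14, limma). Bgn, which encodes the matrix proteoglycan biglycan, had 4.35 and 4.35 in passage 15, against 12.71 and 12.65 in PC. Anxa1, a phospholipid-binding protein, was at least 170-fold lower. Emp1, a membrane protein, fell by 8.33 on the log2 scale and Col4a1, a chain of basement membrane collagen, by 7.52, both still detected on every array. Prl2c3, Prl2c4 and Klra4 were at least 577-fold, 462-fold and 173-fold lower, but belong to families of near-identical genes whose probes may read more than 1 member. Chosen as the rises were, these 8 genes could not have overlapping groups.

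**Figure D2:**
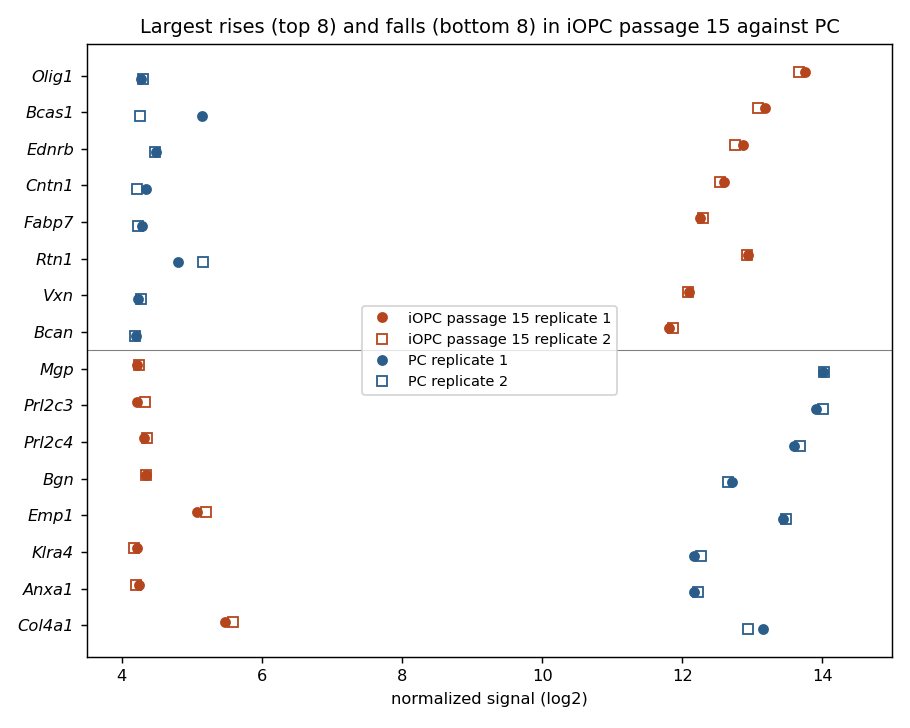
Log2 normalized signal of the 8 genes with the largest rises (top) and the 8 with the largest falls (bottom) on the passage 15 arrays (red) and the PC arrays (blue), with replicate 1 filled and replicate 2 open. The dim side lies near the floor, between about 4 and 6, and the replicates of a group lie close together beside the distance between the groups; the genes were chosen by these values.

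Transcription factors of the oligodendrocyte lineage were mostly higher in passage 15. Of 28 listed genes 23 had a probe and 19 were tested, of which 18 rose and 1 fell, with a median log2 change of 2.33. Of the 19, 10 passed only through the passage 15 arrays, and the 9 detected on all 4 arrays had a median of 1.83. Nkx2-2, a homeodomain factor, had log2 signals of 10.93 and 10.93 in passage 15, against 4.23 and 4.26 in PC, at least 63.6-fold higher. Sox2, a factor of neural progenitors, had 9.97 and 9.82 in passage 15, against 4.19 and 4.20 in PC. Olig2, a partner of Olig1, had 7.99 and 8.05 in passage 15, against 4.29 and 4.63 in PC, and was at least 8.44-fold higher. Hey1, a repressor downstream of Notch, was at least 35.8-fold higher. Id2, an inhibitor of helix-loop-helix factors, rose by 1.93, while Klf9, a factor induced by thyroid hormone, fell by 2.03, the only listed gene that fell. Sox10 had no probe here. In the value columns titled passage 15, 10 of the 19 rose and 4 fell, with a median of 0.78, which was -0.54 over the genes detected on all 4 signal arrays. In those titled OPC, 16 rose and 1 fell, with a median of 4.57.

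Receptors and surface proteins of the progenitors were higher as well. Of 29 listed genes 23 were tested, 14 of them passing only through the passage 15 arrays. The tested genes gave 20 rises and 2 falls with a median of 3.11, and the 8 detected on all 4 arrays had a median of 1.01. Pdgfra, the receptor for platelet-derived growth factor AA, had log2 signals of 12.80 and 12.72 in passage 15, against 9.32 and 9.23 in PC, a rise of 3.49 ± 0.08 (SE). Cspg4, which encodes NG2, had 8.77 and 8.86 in passage 15, against 5.82 and 5.71 in PC, a rise of 3.06 ± 0.09. Both genes were thus detected in PC too. Gpr17, a receptor of progenitors about to differentiate, was at least 85.3-fold higher. The 2 genes that fell were Vcan, which encodes the proteoglycan versican, by 0.98 and Matn4, a matrix adaptor protein, by 0.59. Matn4 was 5.15 higher than PC in the value columns titled passage 15 and 0.95 lower in those titled OPC. Among value columns, 17 rose and 3 fell in those titled passage 15, and 19 rose and 2 fell in those titled OPC, where 1 fell without any 1 of the 4 columns. The call lost was that of Vcan (-1.21, adjusted p = 0.0382, limma, and from 0.0747 to 0.165 without 1 column).

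Genes of premyelinating and myelinating cells were divided. Of 33 listed genes 19 were tested, 6 of them through the passage 15 arrays alone, and 13 rose and 6 fell with a median of 1.04. Another 9 with a probe, among them classical late myelin genes, were detected on none of the 4 arrays. Ugt8a, the enzyme that makes the myelin lipid galactocerebroside, had log2 signals of 9.57 and 9.53 in passage 15, against 4.31 and 4.29 in PC. Cldn11, the tight junction protein of myelin, had 10.50 and 10.70 in passage 15, against 5.40 and 6.00 in PC, a rise of 4.90 ± 0.16 (SE). Mbp, a main myelin protein, had 5.95 and 5.97 in passage 15, against 4.50 and 4.22 in PC, by its brighter probe, which was at least 2.03-fold higher. A second Mbp probe, the only one detected on all 4 arrays, was lower by 0.33, so the direction for Mbp depends on the probe. The genes that fell included Apod, a lipid carrier, which was at least 66.5-fold lower, Cryab, a small heat shock protein, which fell by 4.90, and Evi2a, a membrane protein gene, which fell by 2.57. Trf, which encodes the iron carrier transferrin, had 7.36 and 7.46 in passage 15, against 9.55 and 9.28 in PC, a fall of 2.00, and Gamt, an enzyme of creatine synthesis, fell by 1.12. The last of the 6, Qdpr, an enzyme of biopterin recycling, differed by -0.29 (adjusted p = 0.0197, limma), a call lost under median scaling (-0.25, adjusted p = 0.0713, limma), without PC replicate 2 (-0.15, adjusted p = 0.177, limma) and without passage 15 replicate 2 (-0.26, adjusted p = 0.0890, limma).

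Genes of pericytes and other mural cells fell more often than they rose. Of 29 listed genes 18 were tested, 8 of them through the PC arrays alone and 2 through the passage 15 arrays alone. There were 11 falls and 5 rises with a median of -1.48, but the median was 0.28 over the 7 detected on all 4 arrays. Pdgfrb, the receptor that recruits pericytes to vessels, had log2 signals of 4.22 and 4.25 in passage 15, against 8.53 and 8.21 in PC (adjusted p = 1.82e-10, limma). Foxc1 and Foxc2, forkhead factors of mesenchyme, were at least 13.1-fold and 19.4-fold lower. Besides Ednrb and Cspg4, the rises were in Alpl, Mcam and Nt5e. Alpl, alkaline phosphatase, was at least 2.76-fold higher, Mcam, an adhesion molecule, rose by 0.87 and Nt5e, an ecto-nucleotidase, by 0.44. By another probe Nt5e differed by 0.21 (adjusted p = 0.105, limma), so its call depends on the probe. Of the 27 listed genes with a probe, 8 were detected on none of the 4 arrays, namely Rgs5, Des, Kcnj8, Abcc9, Vtn, Higd1b, Tbx15 and Heyl, which include widely used pericyte markers. The PC label thus rests on some listed markers, such as Pdgfrb, and lacks others.

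Contractile genes of smooth muscle fell as a group. Of 23 listed genes 15 were tested, 13 of them detected on all 4 arrays, and 14 fell and 0 rose with a median of -1.64, which was the same over those 13. Acta2, smooth muscle actin, had log2 signals of 8.36 and 8.41 in passage 15, against 11.19 and 11.21 in PC, a fall of 2.82. Tpm2, a tropomyosin, was at least 26.9-fold lower. Cnn2, a calponin that binds actin, fell by 3.39 and Actn1, an actin crosslinker, by 3.09. Of the 15, 11 fell and 0 rose in the value columns titled passage 15, and 13 fell and 0 rose in those titled OPC. The promoters of Cnn2 and Vcl, the vinculin gene, are shown. Both are among the 3 tested contractile genes whose windows hold a CArG box, the motif bound by serum response factor. Vcl was chosen for the motif after its values were seen and fell by 1.92. The windows are the 250 bases before the start in the RefSeq table of GRCm38.p6, both on the plus strand, at chr10:79988350-79988599 for Cnn2 and chr14:20929148-20929397 for Vcl. Capitals mark the motif, which begins at -56 from the start in Cnn2 and at -227 in Vcl.
Cnn2: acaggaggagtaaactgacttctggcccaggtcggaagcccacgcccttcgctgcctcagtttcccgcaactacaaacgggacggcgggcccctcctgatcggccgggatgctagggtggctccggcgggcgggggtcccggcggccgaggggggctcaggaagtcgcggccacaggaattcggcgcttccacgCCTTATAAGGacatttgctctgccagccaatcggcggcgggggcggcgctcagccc
Vcl: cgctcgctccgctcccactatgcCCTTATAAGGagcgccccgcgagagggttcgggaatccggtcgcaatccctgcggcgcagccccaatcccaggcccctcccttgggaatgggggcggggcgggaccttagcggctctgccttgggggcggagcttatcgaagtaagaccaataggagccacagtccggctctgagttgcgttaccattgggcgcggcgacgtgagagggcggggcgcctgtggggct
Of 32851 such windows in the table, 1.47% hold a CArG box, against 17.4% of the 23 windows of the listed contractile genes. Counted by gene, the box was present for 3 of the 14 tested contractile genes with a window. A match is a description and says nothing about binding.

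Collagens and the enzymes that modify them were lower. All 24 listed genes with a probe were tested, 14 of them through the PC arrays alone, and 23 fell and 0 rose with a median of -3.43, or -1.73 over the 10 detected on all 4 arrays. Col1a1, the main fibrillar collagen chain, had log2 signals of 4.39 and 4.38 in passage 15, against 9.02 and 8.96 in PC, at least 18.4-fold lower. Col4a2, the partner of Col4a1 in basement membranes, was at least 142-fold lower and Lox, which crosslinks collagen, at least 115-fold lower. Pcolce, an enhancer of collagen processing, was at least 82.4-fold lower. In the value columns titled passage 15, 16 fell and 5 rose, with a median of -1.39, and without PC replicate 2 or without passage 15 replicate 2 the rises numbered 3. Col1a1 differed there by -1.26 (adjusted p = 0.00743, limma), by -1.13 without PC replicate 1 (adjusted p = 0.0504, limma) and by -1.11 without passage 15 replicate 2 (adjusted p = 0.0506, limma). In the columns titled OPC, 22 fell and 0 rose, with a median of -5.70.

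Other matrix and fibroblast genes were mostly lower too. Of 38 listed genes 28 were tested, 12 through the PC arrays alone, and 26 fell and 2 rose with a median of -3.24, or -2.59 over the 16 detected on all 4 arrays. Nid1, a linker of basement membrane networks, had log2 signals of 6.31 and 6.23 in passage 15, against 12.24 and 12.17 in PC, a fall of 5.94. Thbs2, a matricellular protein, was at least 49.1-fold lower and S100a6, a calcium-binding protein, fell by 6.06. The 2 rises were in Tnc and Mfap2. Tnc, which encodes tenascin C, a matrix protein of glial progenitors, rose by 4.16 ± 0.09 (SE). Mfap2, a microfibril protein, rose by 1.30. Other Tnc probes rose by 0.46, 0.89, 1.95 and 4.36. Other Mfap2 probes differed by 0.66 (adjusted p = 0.00131, limma) and 0.31 (adjusted p = 0.156, limma). Both sizes and the Mfap2 call thus depend on the probe.

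Genes of the TGF-beta and BMP pathway fell more often than they rose. Of 31 listed genes 26 were tested, 7 of them through the PC arrays alone, and 17 fell and 6 rose with a median of -1.31, or -0.13 over the 16 detected on all 4 arrays. Among ligands, Inhba, the activin A subunit, had log2 signals of 4.39 and 4.32 in passage 15, against 8.81 and 8.82 in PC, at least 16.3-fold lower. Bmp7, a bone morphogenetic protein, rose by 2.68 and Inhbb, the activin B subunit, by 1.06. Among receptors, Tgfbr2, which binds TGF-beta, had 5.83 and 5.87 in passage 15, against 11.29 and 11.08 in PC, a fall of 5.34. By another probe Tgfbr2 fell by 1.07 (adjusted p = 8.78e-06, limma), so the size of its fall depends on the probe. Eng, the co-receptor endoglin, was at least 28.2-fold lower, while Tgfbr1, the partner of Tgfbr2, rose by 0.59 and Bmpr1a, a BMP receptor, by 0.54. A second Bmpr1a probe differed by -0.05 (adjusted p = 0.791, limma), so the Bmpr1a rise depends on the probe. Smad1, which carries BMP signals to the nucleus, rose by 0.36. Tgfbi, a matrix protein induced by TGF-beta, was at least 56.3-fold lower, and Id2, a BMP target, was named above as a rise. The value columns gave 18 falls and 4 rises in those titled passage 15, and 17 fell and 4 rose in those titled OPC; the rises titled passage 15 numbered 2 without PC replicate 1 or without passage 15 replicate 1.

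Interferon-stimulated and antigen presentation genes were lower. Of 34 listed genes 27 were tested, 9 of them through the PC arrays alone, and 23 fell and 2 rose and the list fell by a median of 2.00, or by 1.19 over the 12 detected on all 4 arrays. Ifit3, an antiviral protein, had log2 signals of 4.63 and 4.49 in passage 15, against 8.31 and 8.31 in PC, at least 11.5-fold lower. Oasl2, a relative of the oligoadenylate synthetases, was at least 9.68-fold lower, Usp18, which removes ISG15 from proteins, at least 8.15-fold and Ifi35 at least 7.14-fold. By other probes Ifit3 differed by -1.37 and -1.70 on the log2 scale and Usp18 by -3.06 and -0.76, so these sizes depend on the probe. The 2 rises were in Mx2, an antiviral GTPase, by 1.00 ± 0.15 (SE), and in Gbp3, a guanylate-binding protein, by 0.25 (adjusted p = 0.0121, limma), a call lost without PC replicate 1 (0.21, adjusted p = 0.0632, limma) and without passage 15 replicate 2 (0.20, adjusted p = 0.0846, limma). The value columns titled passage 15 gave 16 falls and 5 rises, where the rises numbered 3 without PC replicate 1. In those titled OPC 22 fell and 1 rose. Of the 2 rises in the signal table, that of Gbp3 was 0.21 by another probe (adjusted p = 0.113, limma).

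The promoters of Ifit3, Bst2 and B2m are shown. They are among the 9 tested interferon genes whose windows hold the interferon-stimulated response element, which the factor ISGF3 binds. It was searched on both strands as GAAA, 2 bases of any kind and GAAA again. Bst2, a tether of virus particles, and B2m, the light chain of MHC class I, were chosen for the motif after their values were seen. Bst2 fell by 3.03, and B2m, with log2 signals of 10.04 and 10.04 in passage 15, against 12.96 and 12.97 in PC, fell by 2.93. The windows are the 250 bases before the start in GRCm38.p6 (RefSeq), at chr19:34583279-34583528 on the plus strand for Ifit3, chr8:71537473-71537722 on the minus strand for Bst2 and chr2:122147437-122147686 on the plus strand for B2m. Capitals mark the matches, which begin at -156 and -122 in Ifit3, at -130 and -124 in Bst2, where they share bases, and at -139 in B2m.
Ifit3: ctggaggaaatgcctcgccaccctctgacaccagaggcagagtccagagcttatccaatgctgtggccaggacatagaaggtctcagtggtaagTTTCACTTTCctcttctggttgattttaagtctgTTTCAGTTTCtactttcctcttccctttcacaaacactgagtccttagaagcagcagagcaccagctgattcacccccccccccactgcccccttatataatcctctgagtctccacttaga
Bst2: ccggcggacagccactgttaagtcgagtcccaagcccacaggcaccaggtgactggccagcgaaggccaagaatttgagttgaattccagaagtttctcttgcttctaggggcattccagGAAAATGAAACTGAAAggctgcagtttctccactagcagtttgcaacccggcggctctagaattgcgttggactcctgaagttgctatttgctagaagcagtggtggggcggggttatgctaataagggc
B2m: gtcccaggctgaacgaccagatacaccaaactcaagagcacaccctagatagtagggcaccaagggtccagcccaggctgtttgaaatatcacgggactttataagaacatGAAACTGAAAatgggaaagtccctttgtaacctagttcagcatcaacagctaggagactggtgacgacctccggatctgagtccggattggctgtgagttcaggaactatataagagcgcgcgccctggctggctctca
The element was present in 2.98% of all 32851 windows and in 31.4% of the 35 windows of the listed interferon genes. Counted by gene, it was present for 9 of the 23 tested interferon genes with a window. These 9 include Gbp3, so the motif was present both in genes that fell and in one of the 2 that rose.

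Chemokines and cytokines mostly fell. Of 24 listed genes 16 were tested, 11 of them through the PC arrays alone, and 13 fell and 3 rose with a median of -2.07, while the 3 detected on all 4 arrays had a median of 0.21. Ccl2, which attracts monocytes, had log2 signals of 4.60 and 4.73 in passage 15, against 9.54 and 9.89 in PC, at least 30.5-fold lower. Ccl7, a related chemokine, was at least 74.4-fold lower, Ccl9 at least 31.0-fold and Il33, an alarm cytokine, at least 26.4-fold. Cxcl14, a chemokine, was at least 4.32-fold higher and Cx3cl1, which signals to microglia, rose by 1.38. Mif, a macrophage factor, was the last of the 3, by 0.21 (adjusted p = 0.0189, limma), with -0.08 under median scaling, and its call was lost without PC replicate 1 (0.17, adjusted p = 0.0950, limma), without passage 15 replicate 1 (0.22, adjusted p = 0.0642, limma) and without passage 15 replicate 2 (0.21, adjusted p = 0.0693, limma).

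**Figure D3:**
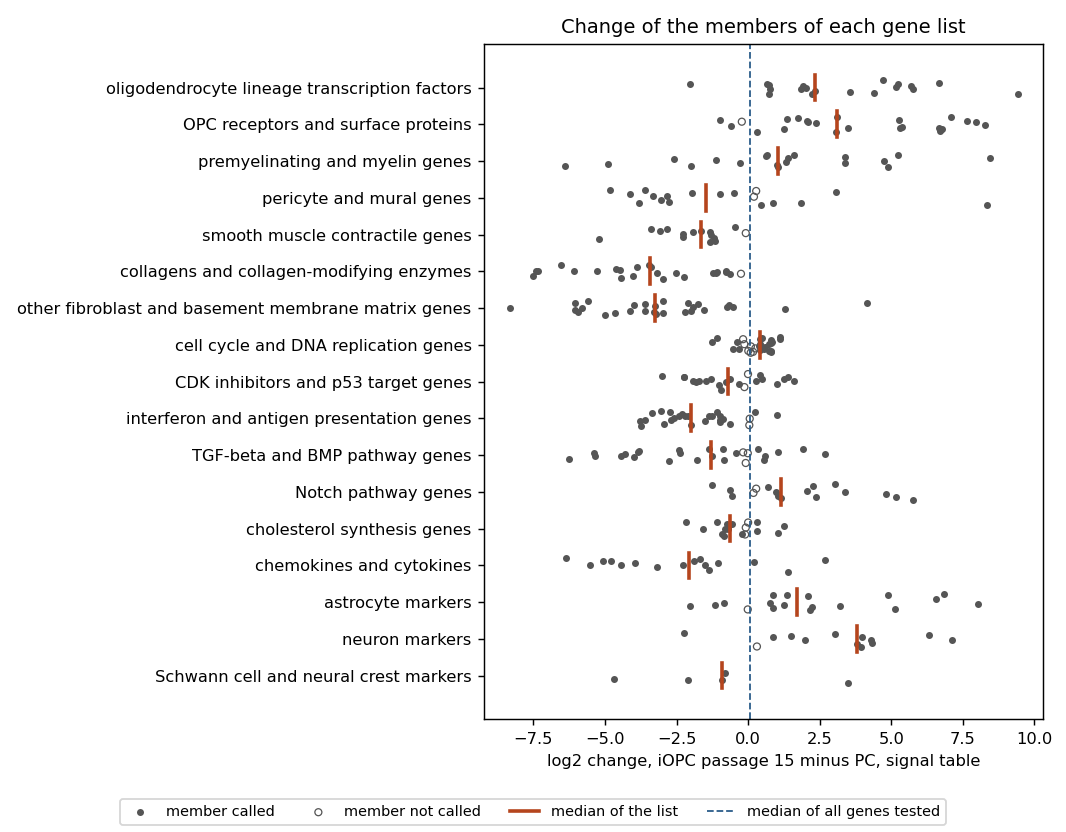
Log2 change in the signal table, passage 15 minus PC, of each tested member of the 17 gene lists with at least 5 tested genes (filled, called; open, not called), with each list's median (red bar) and the median of all 9072 genes (dashed, 0.08). Collagens and contractile genes lie to the left with no called member to the right, and neuron markers and oligodendrocyte lineage transcription factors lie mostly to the right.

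Cell cycle and DNA replication genes were moderately higher. All 29 tested genes, of 37 listed, were detected on all 4 arrays, and 17 rose and 5 fell with a median of 0.42. Mcm2, a subunit of the replicative helicase, had log2 signals of 9.76 and 9.66 in passage 15, against 8.65 and 8.56 in PC, a rise of 1.11 ± 0.07 (SE). Mcm5, of the same helicase, rose by 1.10. The falls were in E2f1, a factor that switches on replication genes, by 1.27, and the D cyclins Ccnd3, by 1.09, and Ccnd1, by 0.52. Birc5, a mitotic survivin, fell by 0.39 and Tyms, thymidylate synthase, by 0.33. Other Tyms probes differed by -0.39 (adjusted p = 0.0292, limma) and 0.22 (adjusted p = 0.123, limma). Other Ccnd1 probes differed by -0.57 (adjusted p = 4.23e-05, limma) and -0.28 (adjusted p = 0.0523, limma). Ccnd2, the third D cyclin, had 13.07 and 13.14 in passage 15, against 12.75 and 12.63 in PC, a difference of 0.42 (adjusted p = 0.00869, limma) that was 0.35 without PC replicate 2 (adjusted p = 0.0592, limma) and 0.10 under median scaling (adjusted p = 0.483, limma). The log2 values of Ccnd2 were 1.51 and 3.07 in the columns titled passage 15 and 13.46 and 13.46 in those titled OPC, against 13.09 and 13.02 in PC. It was called lower in those titled passage 15, below the column median of 3.29 where a difference has no exact size, and not called in those titled OPC (adjusted p = 0.435, limma). In the columns titled passage 15, 17 of the 29 genes rose and 2 fell, with 1 fall without PC replicate 1, passage 15 replicate 1 or passage 15 replicate 2. In those titled OPC, 9 rose and 3 fell, with 5 rises and 2 falls without PC replicate 1 or without OPC replicate 2. Over all genes tested, 29.6% rose and 26.2% fell in the columns titled passage 15, and 32.6% rose and 27.4% fell in those titled OPC. Mki67 had no probe here.

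Inhibitors of cyclin-dependent kinases and p53 targets fell more often than they rose. All 22 genes with a probe were tested, 21 of them detected on all 4 arrays, and 13 fell and 7 rose with a median of -0.69. Cdkn2b, which encodes p15INK4b, had log2 signals of 7.49 and 7.78 in passage 15, against 9.75 and 10.01 in PC, a fall of 2.24. Cdkn2a, of the same locus, had 9.17 and 9.19 in passage 15, against 9.89 and 10.00 in PC, a fall of 0.76 by its brighter probe. A second Cdkn2a probe differed by -0.07 (adjusted p = 0.690, limma), so this fall depends on the probe. Both genes were called lower in the value columns titled passage 15, where the values lay below the column median of 3.29. Cdkn2a had 1.12 and 1.68 there, against 10.16 and 10.26 in PC, and Cdkn2b had 1.92 and 1.15, against 10.01 and 10.19 in PC. In the columns titled OPC, Cdkn2b was lower than in PC by 2.51 and Cdkn2a by 1.01 (adjusted p = 0.0407, limma). The call for Cdkn2a was lost without any 1 of the 4 columns (adjusted p from 0.0966 to 0.153, limma). Cdkn1c, p57, fell by 2.25, Pmaip1, a p53-induced death factor, by 1.94, and Perp, a desmosomal protein, was at least 5.90-fold lower. The rises were led by Cdkn2c, p18, by 1.60, Sesn2, a stress sensor, by 1.40, Trp53inp1, by 1.25, and Cdkn1b, p27, by 1.00. Plk2, a stress-induced kinase, rose by 0.49 and Zmat3, an RNA-binding p53 target, by 0.40, which was 0.28 under median scaling (adjusted p = 0.0591, limma). Ei24, a membrane protein induced by p53, differed by 0.27 (adjusted p = 0.0185, limma), a call lost under median scaling (0.11, adjusted p = 0.444, limma) and without PC replicate 1, PC replicate 2 or passage 15 replicate 1 (adjusted p from 0.0532 to 0.117, limma).

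Cholesterol synthesis genes, which myelinating cells use heavily, fell more often than they rose. All 18 genes with a probe were detected on all 4 arrays, and 11 fell and 4 rose with a median of -0.64. Ebp, a sterol isomerase, had log2 signals of 8.06 and 8.11 in passage 15, against 10.27 and 10.28 in PC, a fall of 2.19. Nsdhl, a sterol dehydrogenase, fell by 1.57 and Hsd17b7 by 1.09. Hmgcs1, the synthase at the head of the pathway, had 13.29 and 13.36 in passage 15, against 12.29 and 12.24 in PC, a rise of 1.06, and Dhcr7, which makes cholesterol in the last step, rose by 1.26. The other two rises, Srebf2, the pathway's transcription factor, by 0.32, and Sqle, squalene epoxidase, by 0.30, were lost without PC replicate 2 (0.18, adjusted p = 0.134 and 0.17, adjusted p = 0.121, limma), which left 2 rises and 12 falls. By another probe Sqle differed by 0.12 (adjusted p = 0.529, limma). Over all genes tested, 29.6% rose and 26.2% fell in the value columns titled passage 15. These columns gave 5 rises and 2 falls of cholesterol genes, with fewer falls when any 1 of the 4 columns was left out. In those titled OPC 3 rose and 9 fell, with 2 rises and 4 to 5 falls without PC replicate 2, OPC replicate 1 or OPC replicate 2.

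Notch pathway genes gave different pictures in the like-titled columns. All 22 listed genes had a probe and 17 were tested, 6 of them through the passage 15 arrays alone, and 12 rose and 3 fell with a median of 1.14, or 0.84 over the 10 detected on all 4 arrays. Among ligands, Dll1 had log2 signals of 7.76 and 7.74 in passage 15, against 4.40 and 4.34 in PC, at least 7.02-fold higher. Dll3, a ligand-like regulator, had 9.09 and 9.07 in passage 15, against 4.27 and 4.26 in PC, at least 17.7-fold higher. Among targets, Hes5, a repressor that Notch switches on in neural progenitors, had 9.63 and 9.57 in passage 15, against 4.44 and 4.46 in PC, at least 25.3-fold higher. Hes1, a target in many tissues, had 7.27 and 7.34 in passage 15, against 8.52 and 8.61 in PC, a fall of 1.26. Maml1, a coactivator, fell by 0.65, and Rbpj, the DNA-binding partner of Notch, by 0.57, a call lost without PC replicate 2 (-0.42, adjusted p = 0.0719, limma) and without passage 15 replicate 2 (-0.39, adjusted p = 0.0774, limma).

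In the value columns titled passage 15, 5 Notch pathway genes rose and 5 fell, with a median of -0.09, and without passage 15 replicate 1 the median was 0.0075. In those titled OPC, 10 rose and 1 fell, with a median of 1.37. Over all genes tested, 29.6% rose and 26.2% fell in the columns titled passage 15, and 32.6% rose and 27.4% fell in those titled OPC. Hes5 had log2 values of 1.58 and 2.02 in the columns titled passage 15 and of 9.84 and 9.72 in those titled OPC, against 1.46 and 2.14 in the PC columns. Dll3 had 1.75 and 2.07 in passage 15 and 8.09 and 7.68 in OPC, against 1.91 and 1.72 in PC. The columns titled passage 15 and PC thus overlapped for both genes, while 82% of all genes had no overlap in the value table. The promoters of Hes5 and Lfng, a glycosyltransferase that tunes Notch receptors, are shown because they hold the RBPJ motif, searched on both strands as GTGGGAA. Lfng was chosen for the motif after its values were seen and was at least 3.29-fold higher in the signal table. The windows of 250 bases before the start in GRCm38.p6 (RefSeq) lie on the plus strand at chr4:154960673-154960922 for Hes5 and at chr5:140607091-140607340 for Lfng, with the matches in capitals at -226 and -83 in Hes5 and at -109 in Lfng.
Hes5: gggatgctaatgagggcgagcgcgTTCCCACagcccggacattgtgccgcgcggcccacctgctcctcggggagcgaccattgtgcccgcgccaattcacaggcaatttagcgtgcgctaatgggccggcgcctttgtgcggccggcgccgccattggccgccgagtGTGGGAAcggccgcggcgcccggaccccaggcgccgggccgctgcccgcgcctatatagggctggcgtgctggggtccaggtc
Lfng: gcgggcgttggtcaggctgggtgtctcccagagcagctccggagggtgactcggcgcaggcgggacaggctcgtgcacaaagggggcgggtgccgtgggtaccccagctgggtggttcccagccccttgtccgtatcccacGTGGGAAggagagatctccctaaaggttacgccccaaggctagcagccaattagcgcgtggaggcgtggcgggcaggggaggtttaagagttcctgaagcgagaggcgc
The motif was present in 5.42% of all 32851 windows and in those of 2 of the 12 tested Notch genes that have one, and it shares letters with the E2F motif, also searched.

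**Figure D4:**
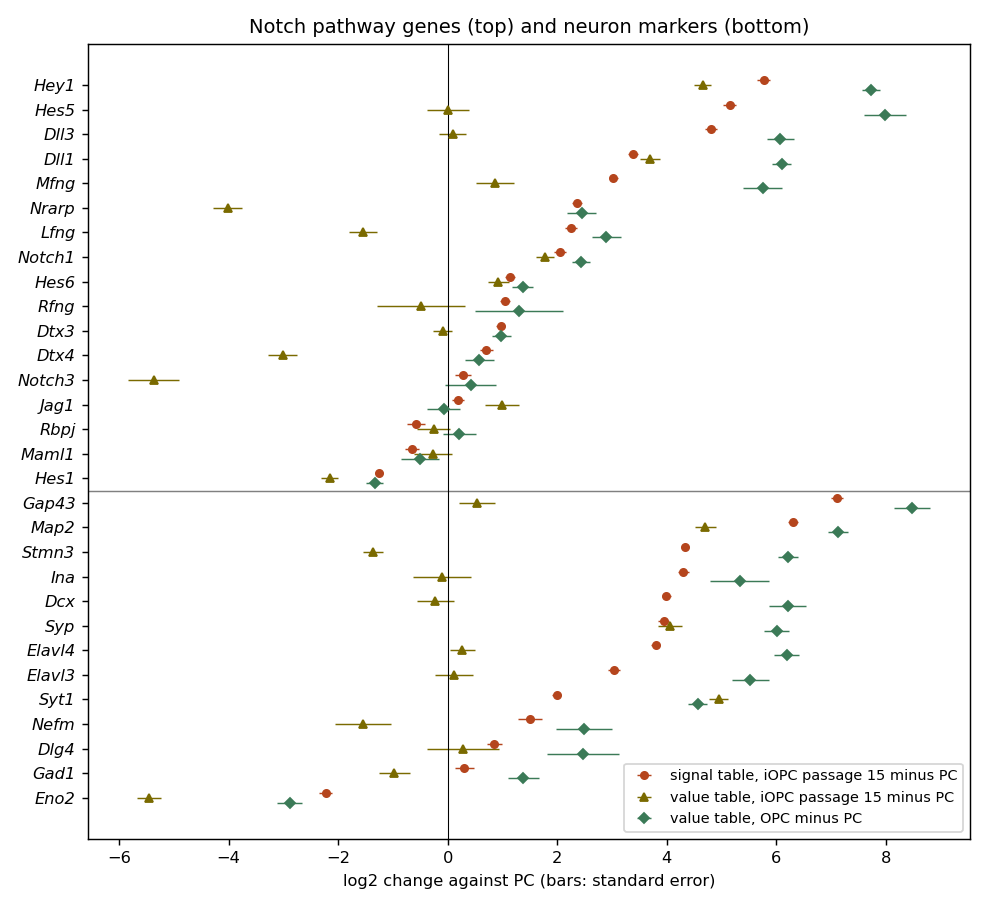
Log2 change against PC, with standard errors, of the 17 tested Notch pathway genes (top) and 13 neuron markers (bottom): passage 15 in the signal table (circles), passage 15 in the value table (triangles) and OPC in the value table (diamonds). For Hes5 and Dll3 the triangles lie near 0 while circles and diamonds lie to the right.

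Markers of neurons and astrocytes were measured in passage 15. Of 22 listed neuron markers, all with a probe, 13 were tested, 11 of them through the passage 15 arrays alone, and 11 rose and 1 fell with a median of 3.80. The 11 had to differ in detection, though 1 of the 13 was not called, and of the 2 detected on all 4 arrays 1 rose and 1 fell. Gap43, a growth cone protein, had log2 signals of 11.80 and 12.004 in passage 15, against 4.83 and 4.75 in PC, at least 125-fold higher. Map2, a microtubule protein, rose by 6.31, while Ina, a neurofilament protein, was at least 12.9-fold higher and Stmn3, a microtubule regulator, at least 12.3-fold. Eno2, neuronal enolase, fell by 2.23. Tubb3, a neuronal tubulin, was detected on 1 of the 4 arrays, and 8 markers were detected on none, among them synaptic, neurofilament and glutamate transporter genes. The deposited signals summed over all 22 genes were 12774 and 13054 on the passage 15 arrays, against 2568 and 2518 on the PC arrays. In the value columns titled passage 15, 3 rose and 4 fell, with 2 falls without PC replicate 1 or without passage 15 replicate 1, and with a median of 0.12 that was -0.08 without passage 15 replicate 2. In those titled OPC 12 rose and 1 fell.

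Astrocyte markers gave 14 rises and 3 falls in the signal table among 18 tested of 22 listed, with a median of 1.72. Of the 18, 7 passed through the passage 15 arrays alone, and the 9 detected on all 4 arrays gave 5 rises and 3 falls with a median of 0.76. The value columns titled passage 15 gave 7 rises and 9 falls with a median of -0.37, and those titled OPC 13 rises and 3 falls with a median of 3.36. Slc1a3, a glutamate transporter, had log2 signals of 12.42 and 12.47 in passage 15, against 5.50 and 5.72 in PC, a rise of 6.84. Aldoc, an aldolase, rose by 6.56 and Atp1b2, a sodium pump subunit, was at least 22.9-fold higher. Sox9, a factor of glial precursors, had 9.75 and 9.73 in passage 15, against 8.92 and 8.82 in PC, a rise of 0.87. Its log2 values were 1.94 and 2.13 in the value columns titled passage 15, below the column median, against 9.15 and 9.25 in PC. The falls were in Gja1, a gap junction protein, by 2.03, Clu, a chaperone, by 1.16, and Cst3, a protease inhibitor, by 0.85. Gfap, the defining filament of astrocytes, was detected on none of the 4 arrays. The deposited signals summed over the 21 genes with a probe were 25288 and 25112 in passage 15, against 15033 and 14449 in PC. The part of neurons or astrocytes in the other results was not tested.

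Microglia and macrophage markers were at background: none of the 14 with a probe, Aif1 among them, was detected on any of the 4 arrays, and their summed signals were 1510 and 1498 in passage 15, against 1499 and 1470 in PC. Endothelial markers were measured in PC. Of 13 with a probe 4 were tested and 3 fell, namely Flt1, a VEGF receptor, by 2.95, Emcn, endomucin, at least 24.0-fold, and Eng, while Egfl7, a secreted vessel protein, differed by 0.12 (adjusted p = 0.263, limma). Their summed signals were 1722 and 1674 in passage 15, against 4923 and 4682 in PC, and Pecam1 was detected on none of the 4 arrays. Of 11 Schwann cell and neural crest markers with a probe 5 were tested, of which Ncam1, an adhesion molecule, rose by 3.49 and 4 fell. Among these Tfap2b and Tfap2a, factors of the neural crest, were at least 19.5-fold and 2.94-fold lower, and Pmp22, a peripheral myelin protein, fell by 0.93. A second Pmp22 probe fell by 3.62 (adjusted p = 3.37e-10, limma), so the size of its fall depends on the probe. The list's median in the signal table was -0.93, the value of the tested Pmp22 probe. The value columns titled passage 15 gave 3 rises and 1 fall with a median of 1.11. The summed signals of this list were 4066 and 3887 in passage 15, against 5509 and 4974 in PC. The part of these cells in the falls was not tested.

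Of 4278 genes called in the like-titled columns of both tables, 306 were higher in the signal table and lower in the value table, and 268 the reverse. The 12 with the largest differences on both sides were named by rule. Trf, lower in the signal table, had log2 values of 12.04 and 12.0006 in the value columns titled passage 15 and 7.75 and 7.99 in those titled OPC, against 10.11 and 9.79 in PC. Col3a1, a fibrillar collagen chain, had 9.70 and 9.94 in passage 15 and 1.58 and 1.49 in OPC, against 7.81 and 7.98 in PC. It was at least 15.4-fold lower in the signal table. Cldn11, higher in the signal table, had log2 values of 1.37 and 1.49 in passage 15 and 10.91 and 11.03 in OPC, against 5.01 and 5.26 in PC. Syn1, a synaptic vesicle protein, had 1.96 and 2.26 in passage 15 and 10.33 and 10.41 in OPC, against 6.58 and 6.31 in PC. It rose by 3.52 in the signal table. Lpar1, a lysophosphatidic acid receptor, Nid2, a basement membrane linker, Tfap2a and Gfpt2, an enzyme of hexosamine synthesis, were lower in the signal table and higher in the value columns titled passage 15. Ckmt1, a mitochondrial creatine kinase, Scg2, a secretory granule protein, Ppm1e, a phosphatase, and Mt3, a brain metallothionein, were higher in the signal table and lower in those columns. In the value columns titled OPC all 12 had the sign of the signal table. These genes were chosen for this pattern, so it is a description.

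Passage 15 was also set against the mean of passages 5 and 25, the earlier and later passages of the induced cells in the labels. Of the signals, 3666 genes (40.4%) were higher and 2830 (31.2%) lower, a number near that of the comparison with PC. Of the deposited values, 30 genes (0.331%) were higher and 113 (1.25%) lower. Higher genes made up 56.4% of those called in the signal table, and 68.4% under median scaling, which moved the median of all genes from 0.07 to 0.25. Without passage 5 replicate 2 the value table gave 873 higher and 1016 lower, and without passage 15 replicate 1 it gave 1 higher and 7 lower, so that its counts rest on single columns. Its passage 5 columns correlated with each other at 0.908, against 0.987 for passage 15 and 0.990 for passage 25.

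The signals of the genes with the largest differences from the other passages are given by passage. Gap43 had log2 signals of 4.83 and 4.75 in PC, 4.96 and 5.12 at passage 5, 11.80 and 12.004 at passage 15, and 4.38 and 4.28 at passage 25. Ccnd2 had 12.75 and 12.63 in PC, 4.92 and 5.11 at passage 5, 13.07 and 13.14 at passage 15, and 4.32 and 4.24 at passage 25, so that passage 15 lay near PC and far from both other passages. B3gat1, which makes the HNK-1 sugar of neural cells, and Gpm6a, a neuronal membrane protein, were near the floor in PC and at passages 5 and 25, and above 11 at passage 15. Mt3 and Dner, a Notch ligand of neurons, were high at passage 15 in the same way.

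Mgp had 14.00 and 14.03 in PC, 11.95 and 11.97 at passage 5, 4.21 and 4.25 at passage 15, and 14.00 and 13.98 at passage 25. Serpina3n, a protease inhibitor of inflamed tissue, had 7.04 and 7.28 in PC, 12.96 and 12.95 at passage 5, 5.12 and 5.11 at passage 15, and 13.49 and 13.61 at passage 25. Bgn, Lcn2, an iron-scavenging lipocalin, Mmp2, a collagenase, and Col6a1, a microfibrillar collagen chain, were likewise lowest at passage 15 among the 4 groups. These 12 genes were chosen for their difference from the other passages. Of the fixed markers, Mbp had 4.50 and 4.22 in PC, 9.16 and 9.07 at passage 5, 5.95 and 5.97 at passage 15, and 10.78 and 10.88 at passage 25. Pdgfra had 9.32 and 9.23 in PC, 11.53 and 11.49 at passage 5, 12.80 and 12.72 at passage 15, and 8.87 and 8.75 at passage 25. Gpr17 had 4.36 and 4.21 in PC, 7.24 and 6.93 at passage 5, 11.41 and 11.30 at passage 15, and 12.004 and 11.81 at passage 25. The signals of Gpr17 and Bcas1 were thus higher on the arrays titled with each later passage. In the value table neither was called at passage 15 against the mean of passages 5 and 25. Gpr17 differed there by -0.45 (adjusted p = 0.109, limma) and Bcas1 by 1.00 (adjusted p = 0.129, limma). Given the mismatch of titles, a course over passages was not tested. Olig2 had 4.29 and 4.63 in PC, 4.73 and 4.80 at passage 5, 7.99 and 8.05 at passage 15, and 4.69 and 4.57 at passage 25.

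**Figure D5:**
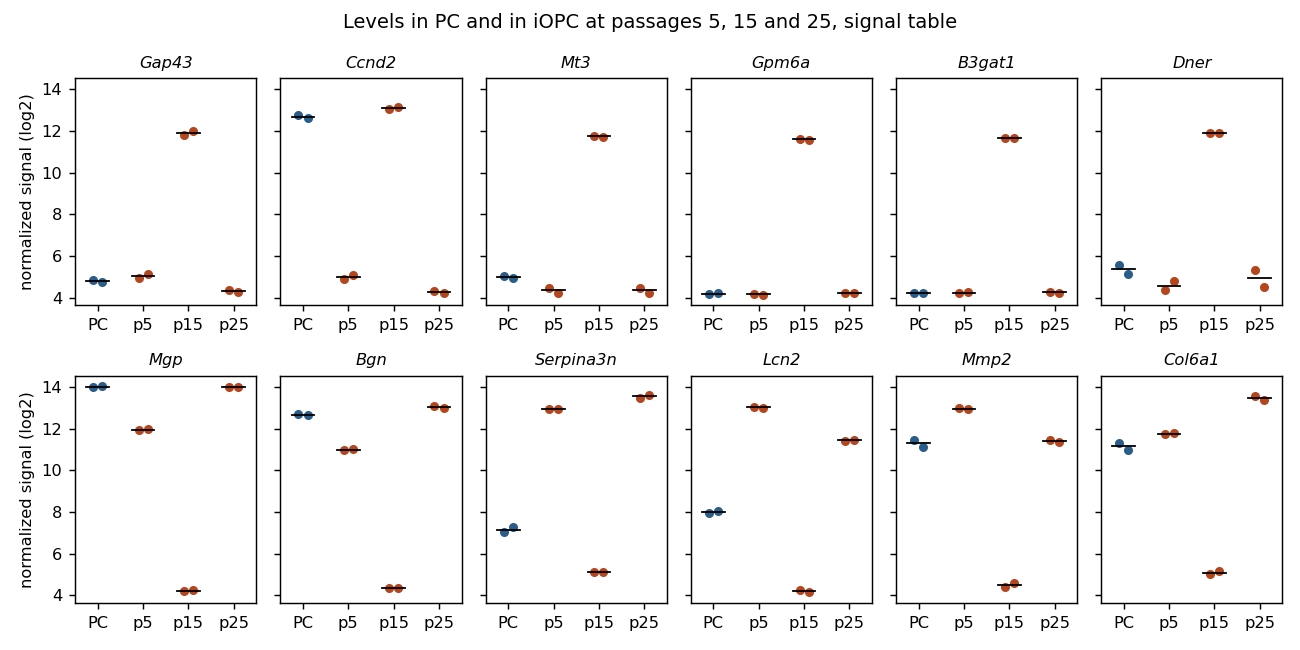
Log2 normalized signal of 12 genes in PC (blue) and in iOPC at passages 5, 15 and 25 (red), 2 arrays each as points with their mean as a line; p stands for passage. The 6 genes of the top row are high at passage 15 and low at passages 5 and 25, and the 6 of the bottom row are lowest at passage 15.

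The lists differed between passage 15 and the other passages too. Of 19 premyelinating and myelin genes tested, 14 were lower at passage 15 than the mean of passages 5 and 25 and 2 were higher, with a median of -1.49. Of 29 cell cycle genes 27 were higher and 0 lower, with a median of 0.86. Of 13 neuron markers 12 were higher and 1 lower, and of 17 Notch pathway genes 11 were higher and 4 lower. Collagens gave 18 lower and 0 higher of 24, and interferon genes 24 lower and 1 higher of 27. In the value table each of these lists had at most 3 genes called in this comparison.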

How the data were processed

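Arrays were grouped by title. The deposited signal table holds probe intensities and detection p-values on a linear scale per the file headers; per the submitters' processing notes the tools were RMA, lumi and BeadStudio 3.2, with no role stated for any. The deposited value table holds log2 values with equal quantiles in every column; its unit was taken from a slope of 0.986 on log2 signal over 1632 bright probes, and its centring and processing are not given in the sources used here. Depth has no meaning for arrays.

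Signals were corrected with neqc (offset 16, negative controls inferred from detection p-values), quantile normalized over 10 arrays and tested in limma 3.58.1 (R 4.3.3) with lmFit and eBayes on group means (5 residual degrees of freedom). Adjusted p-values are Benjamini-Hochberg over 9072 genes. The value table was fitted as deposited on the same probes. Of the 25697 probes, 23978 have 1 gene symbol, 0 several and 1719 none. A gene took its brightest member probe. Replicate numbers did not pair arrays (deviation r of -0.015 for signal and 0.017 for values), and the scripts were tested on simulated data. Named genes were the largest rises and falls among genes whose groups did not overlap, the largest members of each list and fixed markers. Genes called in opposite directions and the largest differences from other passages were named too. The members, gene lists and rules were chosen with earlier results of these data known. Gene symbols and promoter windows came from RefSeq tables (GRCm38.p6 for windows). Alternatives covered background, scaling, filters, probes, variance model, block and left-out arrays.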

Additional observations from a re-analysis of the deposited data

Results flagged for a closer look

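Passage 15 differed from the mean of passages 5 and 25, by a test of the difference itself (limma), in 3666 genes higher and 2830 lower in the signal table. In the value table the same test called 30 genes higher and 113 lower.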

How the results depend on the processing

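For passage 15 minus PC in the signal table, the counts of at least 2-fold calls did not stay within 1.5 times of those reported. The 1612 higher and 1554 lower became 843 and 908 with no background correction, and 931 and 928 over genes detected on all 4 arrays. Calls at an adjusted p under 0.05 were counted for passage 15 minus PC and passage 15 minus the other passages in the signal table. In the value table they were counted for passage 15 minus PC and OPC minus PC. All these counts at an adjusted p under 0.05 stayed within 1.5 times of those reported under every alternative run. Without 1 array at a time they ran from 3600 to 3690 higher and 2998 to 3107 lower for passage 15 minus PC in the signal table, from 2047 to 2288 higher and 1860 to 2014 lower in the value table, from 2352 to 2438 higher and 2054 to 2092 lower for OPC minus PC, and from 3226 to 3586 higher and 2518 to 2788 lower for passage 15 minus the other passages in the signal table. In the value table the last comparison gave 46 higher over genes detected on all 4 arrays, 5 higher and 20 lower with no detection filter, 19 higher over every member probe, 138 higher and 261 lower with an intensity trend, and 1 to 873 higher and 7 to 1016 lower without 1 column at a time. With the replicate number as a block it gave 20 higher and 81 lower; the replicate block moved no count over all genes by over 1.5 times. It ended the calls of Vcan, Cdkn2a and Ccnd1 in the value table, OPC minus PC (adjusted p from 0.0537 to 0.0618, limma), which left 1 fall among the progenitor receptors in place of 2. The numbers did not pair the arrays. Among the 149 named genes tested, the sign of a called change turned for 3. The value table's comparison with the other passages was not included in this count. Mbp was -0.33 by another probe over genes detected on all 4 arrays. Mif was -0.081 and, against the other passages, Nsdhl was 0.037 under median scaling. Slide as a block was not run, since the headers give no slides. Probes near the background limit the dim side of a change to a bound. The cause of these changes was not tested.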
